A study of Mus musculus with 6 samples.

Results

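The collagen genes were followed in mouse hearts from 2 transgenic lines and their controls. Members were all genes whose symbol is Col, a number, the letter a and a number, read from probe sets that the array annotation gives to 1 gene symbol. That gave 42 collagen genes on 82 probe sets, of 18193 genes on 34945 such probe sets, and each gene was represented by the probe set with the highest mean over the 6 arrays. They comprised 11 fibrillar collagens, 8 basement membrane collagens and 23 genes of other types, among them type VI, the fibril-associated collagens, the short-chain network collagens and the transmembrane collagens. Of the 42 members, 26 passed the filter on dim genes and were tested among 11254 genes: 7 fibrillar, 8 basement membrane and 11 of other types.

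Collagens are triple helices wound from chains rich in glycine and proline. In the heart, the fibrillar types I and III form the fibres that tie muscle cells and vessels together, with type V inside the fibrils, and fibroblasts are their main source. Type IV makes the sheet-like network of the basement membrane around muscle cells and capillaries, and type VI forms beaded filaments beside it. Chains are hydroxylated and folded with the help of chaperones inside the cell, trimmed after secretion, cross-linked, and later cleared by proteases.

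All hearts came from male mice, 2 months old, on a B6 strain background, with 2 arrays in each of 3 groups. The first group carried an RKIP transgene (Raf kinase inhibitor protein, the product of Pebp1) driven by the alpha-MHC promoter, which is active in heart muscle cells. The second carried GRK-Inh, a peptide that inhibits G-protein-coupled receptor kinases, expressed specifically in the myocardium. The third was wild type, labelled B6 control, and served as control for both lines, so the differences of the 2 lines from it share the same arrays. The labels do not say how many founder lines were used, whether hearts were pooled, or whether each array had its own animal. The p-values therefore rest on how far arrays of the same group lie apart, and that spread may be technical. For each gene it was pooled over the groups and moderated by limma toward the trend of other genes (3 residual and 7.60 prior degrees of freedom). The design asks which heart transcripts go with either transgene in heart muscle, and the RNA was total RNA of whole heart tissue, not of the cells that make collagen. In such bulk samples, fewer cells of a type and less RNA per cell cannot be told apart.

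Values are signals on a linear scale with no unit, scaled by the authors to the same trimmed mean on every array, and the median signal per array was 50.3 to 55.0. Pebp1 was not called on either probe set: its brighter one gave 9102 and 9140 on the RKIP arrays against 9292 and 8766 on the control arrays (log2 fold change 0.015 ± 0.042, SE, limma adjusted p = 0.877 in the fit of all probe sets). Whether those probe sets read the transgene's transcript is not given in the sources used here, so the RKIP label has no check on these arrays, and the group is called RKIP-labelled below. A sign of RNA integrity, the signal of the actin control at the 3′ end over that at the 5′ end, was 2.92 and 2.96 on the RKIP-labelled, 3.03 and 3.0 on the GRK-Inh, and 3.25 and 3.11 on the control arrays. Its ratio thus moved with the groups, and its part in the results was not tested. Over the tested genes, log2 differences between any pair of arrays had an SD of 0.206 to 0.209 where both belonged to one group and of 0.275 to 0.314 otherwise.

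Many collagen genes fell in both lines, and none was called higher. Against the controls, 12 of the 26 tested collagen genes fell in the RKIP-labelled hearts and 14 fell in the GRK-Inh hearts (limma, Benjamini-Hochberg adjusted p under 0.05 over all 11254 genes). At an unadjusted p under 0.05, 0 were higher in either line, and 13 and 15 were lower. No share of all tested genes is given for that unadjusted threshold, and the shares that follow are at the adjusted one. Of all tested genes, 10.8% were called in the first comparison (5.51% lower and 5.32% higher), and 13.1% in the second (7.27% lower and 5.86% higher). The median log2 fold change of the 26 genes was -0.47 in the RKIP-labelled hearts and -0.46 in the GRK-Inh hearts, beside medians of -0.017 and -0.031 over all tested genes. In all, 22 of the 26 were below 0 in the first comparison and 21 in the second. By the negative medians over all tested genes, a majority of these also lay below 0, in a share not given here. Fold changes here are of signal plus an offset of 50, which understates changes of dim genes.

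By class, the calls were spread over all 3. Among fibrillar collagens 4 of 7 fell in each line, with medians of -0.79 in the RKIP-labelled and -0.85 in the GRK-Inh hearts. Basement membrane collagens gave 4 lower of 8 in the RKIP-labelled and 5 in the GRK-Inh hearts, with medians of -0.53 and -0.61. Of the other types, 4 and 5 of 11 fell, with medians of -0.24 and -0.22. Those medians were -0.046 and -0.12 without control array 1, -0.38 and -0.35 without control array 2, and -0.15 in the RKIP-labelled hearts without RKIP array 2. Differences between the classes were not tested. The 12 genes called in the RKIP-labelled hearts lay between -1.25 and -0.55, and the 14 not called lay between -0.48 and 0.21 (adjusted p 0.139 to 0.983). In the GRK-Inh hearts the 14 called genes lay between -1.13 and -0.41, and the 12 not called between -0.31 and 0.37 (adjusted p 0.0587 to 0.933).

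**Figure D1:**
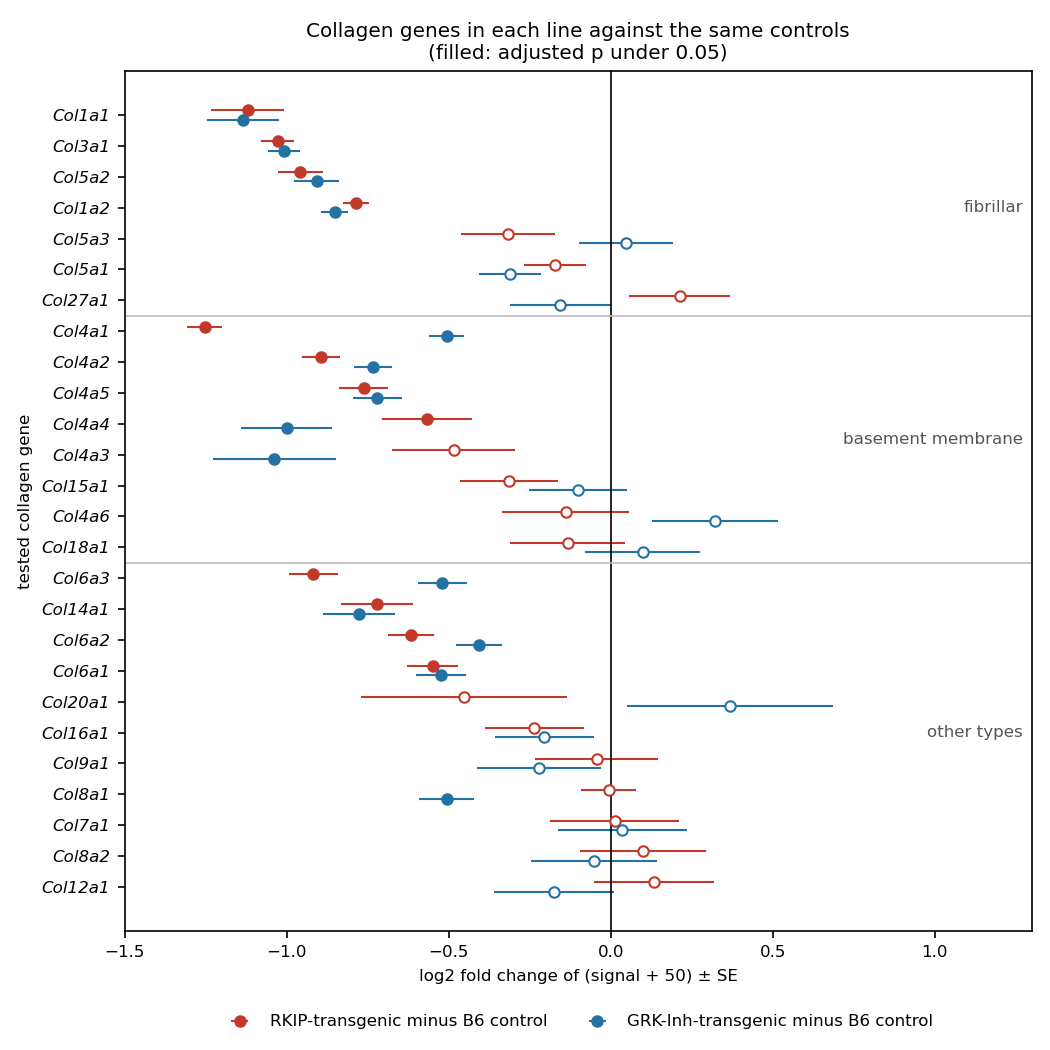
Log2 fold change of (signal + 50) with its standard error, on the horizontal axis, for each of the 26 tested collagen genes in the RKIP-labelled (red) and GRK-Inh (blue) hearts, each minus the same 2 B6 control arrays. Filled circles have a limma adjusted p under 0.05: 12 in red and 14 in blue, all to the left of 0.

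The genes of the main fibre-forming collagens fell together, by amounts far beyond the spread between arrays. Col1a1 encodes the chain present in 2 copies in each type I molecule. Its signal was 646 and 646 on the control arrays, 282 and 259 on the RKIP-labelled arrays and 296 and 241 on the GRK-Inh arrays. Both lines thus lay well below both controls, and the lines overlapped each other. Col1a1 fell by 1.12 ± 0.11 (SE) on the log2 scale in the RKIP-labelled hearts (adjusted p = 0.000128) and by 1.13 ± 0.11 in the GRK-Inh hearts (adjusted p = 8.5e-05). Col1a2, the partner chain of type I, gave 8642 and 8840.4 on the control arrays, 5052 and 5043 on the RKIP-labelled arrays and 4892 and 4754 on the GRK-Inh arrays. Its fold changes were -0.79 ± 0.041, adjusted p = 1.2e-06 in the RKIP-labelled and -0.85 ± 0.041, adjusted p = 5.2e-07 in the GRK-Inh hearts. Col3a1, the single chain of type III, gave 11888 and 13061 on the control arrays, 6065 and 6109.7 on the RKIP-labelled arrays and 6018 and 6327 on the GRK-Inh arrays. It fell by 1.03 ± 0.05 (adjusted p = 7.5e-07) and 1.01 ± 0.05 (adjusted p = 6.3e-07), to about the same level in both lines.

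The 250 bases before the annotated starts of Col1a2 and Col3a1 are shown because types I and III make up the fibres and these genes fell in both lines. They are RefSeq sequence of build GRCm38.p6, written along the gene's strand: chr6:4505368-4505617 (plus strand) for Col1a2, and chr1:45311288-45311537 (plus strand) for Col3a1. Capitals mark the only motifs searched, on either strand, which do not overlap one another. They are the CCAAT box, the GC box with the core letters written GGGCGG, and the TATA element in its common form of TATAAA.
Col1a2: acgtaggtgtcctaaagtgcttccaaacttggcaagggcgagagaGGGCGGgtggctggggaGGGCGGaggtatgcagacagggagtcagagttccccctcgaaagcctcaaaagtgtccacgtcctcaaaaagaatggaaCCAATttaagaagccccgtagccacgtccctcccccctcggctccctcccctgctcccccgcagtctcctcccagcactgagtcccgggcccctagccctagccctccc
Col3a1: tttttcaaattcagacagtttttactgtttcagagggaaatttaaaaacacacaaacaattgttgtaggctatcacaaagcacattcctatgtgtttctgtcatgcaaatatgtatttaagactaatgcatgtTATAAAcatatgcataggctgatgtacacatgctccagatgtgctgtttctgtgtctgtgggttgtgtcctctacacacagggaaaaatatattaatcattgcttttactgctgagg
The Col1a2 window held 1 CCAAT box, which begins 109 bases before the start. It also held 2 GC boxes, at 205 and 188 bases. The Col3a1 window held neither, and 1 TATA element, 117 bases before the start. A match of letters is a description and not a binding site.

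Of the type V chains, which set fibril diameter by copolymerising with type I, Col5a2 was called in both lines and the others in neither. Col5a2 gave 1924 and 1845.5 on the control arrays, 903 and 990.5 on the RKIP-labelled arrays and 1003 and 961 on the GRK-Inh arrays. It fell by 0.96 ± 0.07 in the RKIP-labelled hearts (adjusted p = 1.5e-05) and by 0.91 ± 0.07 in the GRK-Inh hearts (adjusted p = 1.4e-05). Col5a1, the other main chain of the same trimer, gave 905 and 1056 on the control arrays, 844 and 880.2 on the RKIP-labelled arrays and 843 and 719 on the GRK-Inh arrays. All transgenic arrays lay below both controls, but the differences were not called (-0.17 ± 0.10, adjusted p = 0.301, and -0.31 ± 0.10, adjusted p = 0.0587). The latter was called without GRK-Inh array 1 (adjusted p = 0.0418). Col5a3, a further type V chain, was at -0.32 and 0.047, and Col27a1, the type XXVII chain of cartilage, at 0.21 and -0.16. Neither was called. The remaining fibrillar genes, Col2a1, Col11a1, Col11a2 and Col24a1, were dim on every array and were not tested.

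**Figure D2:**
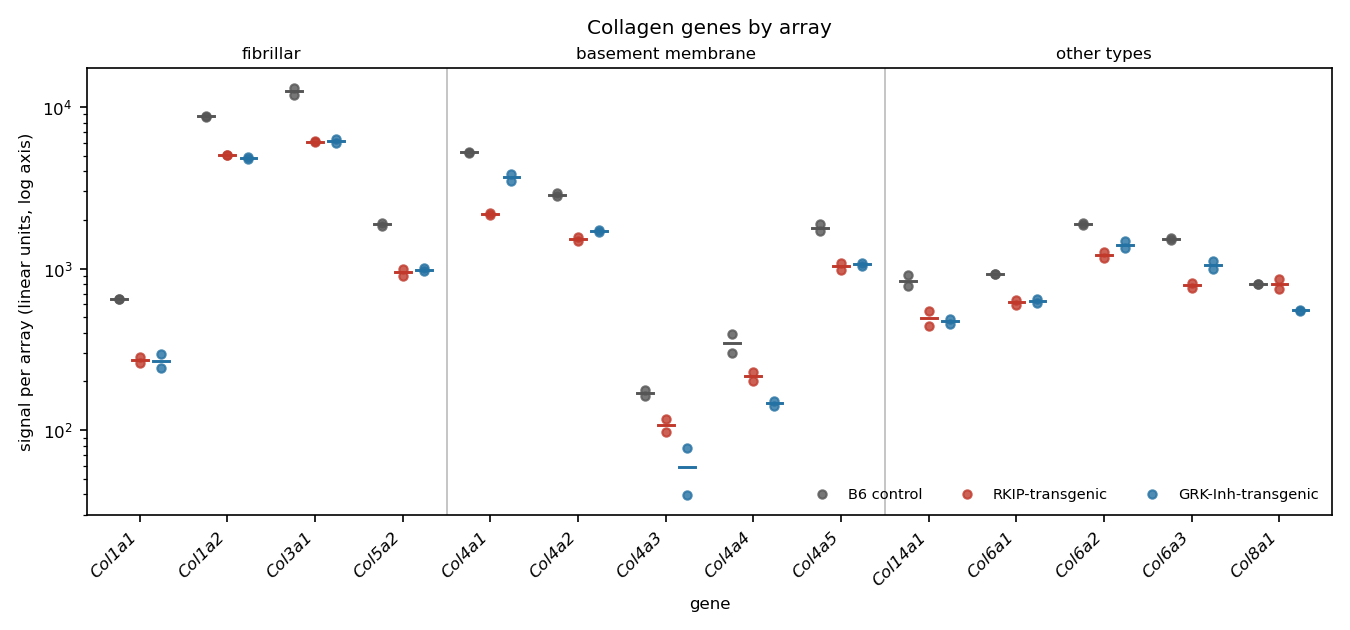
Signal on each array, on a log axis, for the 14 collagen genes called in at least 1 comparison, with a bar at the mean of each group of 2 arrays (grey, B6 control; red, RKIP-labelled; blue, GRK-Inh). The 4 fibrillar genes have both lines at about the same level below the controls, Col4a1 has the GRK-Inh arrays between the others, and Col8a1 has the GRK-Inh arrays lowest.

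Of the 6 type IV genes, which build the basement membrane network, 4 fell in the RKIP-labelled and 5 in the GRK-Inh hearts, and Col4a1 fell further in the former. Col4a1, with Col4a2 the chain of the ubiquitous type IV network, gave 5205 and 5258 on the control arrays, 2191 and 2143 on the RKIP-labelled arrays and 3504 and 3841 on the GRK-Inh arrays. The 3 groups did not overlap, with the GRK-Inh arrays in the middle. Col4a1 fell by 1.25 ± 0.054 in the RKIP-labelled hearts (adjusted p = 3.7e-07), and by 0.51 ± 0.054 in the GRK-Inh hearts (adjusted p = 0.000145). Its partner Col4a2 gave 2817 and 2923 on the control arrays, 1570.2 and 1473 on the RKIP-labelled arrays and 1689 and 1724 on the GRK-Inh arrays. There the fold changes were -0.89 ± 0.058, adjusted p = 5.4e-06 and -0.73 ± 0.058, adjusted p = 1.6e-05, and the difference between the lines (-0.16, adjusted p = 0.121) was not called. A second, dimmer probe set of Col4a1 gave 670.3 and 775 on the control arrays, 627 and 508 on the RKIP-labelled arrays and 764 and 754 on the GRK-Inh arrays. Its fold changes in the fit of all probe sets were smaller and not called (-0.33 ± 0.11, adjusted p = 0.0955, and 0.07 ± 0.11, adjusted p = 0.737). The Col4a1 values therefore hold for the brighter probe set only, and which transcripts each reads was not tested.

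Col4a1 and Col4a2 lie head to head on chromosome 8, and their annotated spans overlap, so that the bases before one start lie within the other gene. The sites below are the 30 bases around the CCAAT match of each. They are shown because both chains of a pair start from this one place, and both were called lower on their brightest probe set. Any link between the shared place and the calls was not tested. They are RefSeq sequence of build GRCm38.p6, chr8:11312954-11312983 (minus strand) for Col4a1 and chr8:11312761-11312790 (plus strand) for Col4a2, with the match in capitals (ATTGG is CCAAT on the opposite strand).
Col4a1: tgcttgcccgggATTGGcgagccaaggggc
Col4a2: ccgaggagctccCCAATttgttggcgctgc
The Col4a1 match begins 145 bases before that gene's start, on the opposite strand, and the Col4a2 match 32 bases before its start.

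The other type IV chains are found in more specialised basement membranes. Col4a5 gave 1877 and 1695 on the control arrays, 1089 and 977 on the RKIP-labelled arrays and 1043 and 1084 on the GRK-Inh arrays, and fell by 0.76 ± 0.076 (adjusted p = 0.000131) and 0.72 ± 0.076 (adjusted p = 0.000142). Col4a4 gave 391 and 299 on the control arrays, 228 and 202 on the RKIP-labelled arrays and 141 and 151 on the GRK-Inh arrays. No transgenic array reached the lower control, and the GRK-Inh arrays were lowest. Col4a4 fell by 1.0 ± 0.14 in the GRK-Inh hearts (adjusted p = 0.000886) and by 0.57 ± 0.14 in the RKIP-labelled hearts (adjusted p = 0.0268). The latter call was lost without RKIP array 1 (adjusted p = 0.0596), RKIP array 2 (0.126) or control array 1 (0.191). Col4a3, which assembles with the Col4a4 and Col4a5 chains, gave 177 and 163 on the control arrays, 117 and 98.0 on the RKIP-labelled arrays and 39.9 and 77.9 on the GRK-Inh arrays. It fell by 1.04 ± 0.19 in the GRK-Inh hearts (adjusted p = 0.00446), while the difference in the RKIP-labelled hearts (-0.48 ± 0.19, adjusted p = 0.139) was not called. Col4a6 was at -0.14 and 0.32, with every array at a signal of 76.8 or less.

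Col15a1 and Col18a1 encode the multiplexins, basement membrane collagens whose ends can be released as restin and endostatin. Col15a1 gave 248 and 224 on the control arrays, 215 and 149 on the RKIP-labelled arrays and 225 and 208 on the GRK-Inh arrays, and was not called in either line (-0.31 ± 0.15, adjusted p = 0.227, and -0.10 ± 0.15, adjusted p = 0.716). Col18a1 gave 116 and 189.8 on the control arrays, 126 and 138 on the RKIP-labelled arrays and 166 and 161 on the GRK-Inh arrays, and the controls lay on either side of all other arrays. Its differences of -0.13 (95% interval -0.52 to 0.26) and 0.10 (-0.29 to 0.49) leave room for changes of moderate size. A second Col18a1 probe set of similar brightness gave -0.30 and -0.18, neither called (limma adjusted p = 0.297 and 0.527 in the fit of all probe sets).

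All 3 tested chains of type VI, the filament-forming collagen beside the basement membrane, fell in both lines. Col6a1 gave 921 and 928 on the control arrays, 639 and 594 on the RKIP-labelled arrays and 646 and 610.4 on the GRK-Inh arrays, and fell by 0.55 ± 0.079 (adjusted p = 0.00139) and 0.52 ± 0.079 (adjusted p = 0.00137). Col6a2 gave 1912 and 1846 on the control arrays, 1267 and 1154 on the RKIP-labelled arrays and 1471 and 1345 on the GRK-Inh arrays, with fold changes of -0.62 ± 0.071, adjusted p = 0.000324 and -0.41 ± 0.071, adjusted p = 0.00332. Col6a3, the long chain that completes the trimer, gave 1545 and 1511 on the control arrays, 818 and 754 on the RKIP-labelled arrays and 1107.5 and 996 on the GRK-Inh arrays. The GRK-Inh arrays again lay between the others without overlap. Col6a3 fell by 0.92 ± 0.075 in the RKIP-labelled (adjusted p = 3.4e-05) and by 0.52 ± 0.075 in the GRK-Inh hearts (adjusted p = 0.00111). The type VI genes Col6a4 and Col6a5 were too dim to be tested.

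Of the fibril-associated collagens, which sit on fibril surfaces, Col14a1 was the one called. It gave 907 and 779 on the control arrays, 545 and 440.5 on the RKIP-labelled arrays and 488 and 453 on the GRK-Inh arrays. Col14a1 fell by 0.72 ± 0.11 (adjusted p = 0.00235) and 0.78 ± 0.11 (adjusted p = 0.00106), and no transgenic array reached the lower control. Col16a1 had signals of 120 to 173 over the 6 arrays and was not called (-0.24 ± 0.15, adjusted p = 0.381, and -0.21 ± 0.15, adjusted p = 0.422). The other tested members of the class were close to the filter: Col12a1 at 0.13 and -0.18, Col9a1 at -0.044 and -0.22, and Col20a1 at -0.45 and 0.37, none of them called. A second tested probe set of Col12a1 gave the opposite signs (-0.14 and 0.14) and was not called either. Col20a1 spread from 21.7 to 135 over the 6 arrays, and its standard error of 0.32 was the largest among the tested collagens. Col7a1, the anchoring fibril chain of skin, was at 0.012 and 0.036.

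Col8a1, a short-chain collagen of vessel walls, was called in the GRK-Inh hearts and not in the RKIP-labelled hearts, and the lines differed. It gave 805 and 807 on the control arrays, 861 and 748 on the RKIP-labelled arrays and 549 and 557 on the GRK-Inh arrays. The RKIP-labelled arrays lay on both sides of the controls, and both GRK-Inh arrays lay below all others. Col8a1 fell by 0.51 ± 0.085 in the GRK-Inh hearts (adjusted p = 0.00265). In the RKIP-labelled hearts the difference was -0.0057 ± 0.085, adjusted p = 0.982, with a 95% interval of -0.19 to 0.18. Col8a2, which can join it in one network, was near the filter at 0.10 and -0.051. The 250 bases before the Col8a1 start, chr16:57754738-57754987 (minus strand), are shown for comparison with those of the fibrillar genes (RefSeq, GRCm38.p6, same marking).
Col8a1: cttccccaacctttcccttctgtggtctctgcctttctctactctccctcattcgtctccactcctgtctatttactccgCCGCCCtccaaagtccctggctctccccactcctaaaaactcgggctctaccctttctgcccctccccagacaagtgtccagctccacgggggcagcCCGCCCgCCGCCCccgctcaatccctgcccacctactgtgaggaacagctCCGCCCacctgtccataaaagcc
It held the GC box at 4 places on the opposite strand (170, 73, 66 and 23 bases before the start) and neither of the other motifs.

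Over the whole family, windows were at hand for 33 of the 42 collagen genes, 36 windows in all, against 32851 windows of all genes. The CCAAT box occurred on either strand in 36.1% of collagen windows and 33.9% of all windows, the TATA element in 13.9% and 12.4%, and the GC box in 58.3% and 32.7%. These shares are given without a test, and some genes had more than 1 window.

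Direct comparison of the lines called 3 of 26 collagen genes, 2 lower and 1 higher in the RKIP-labelled hearts, beside 8.82% of all tested genes (4.35% lower and 4.47% higher). Col4a1 was lower in the RKIP-labelled than in the GRK-Inh hearts by 0.75 ± 0.054 (adjusted p = 1.3e-05), and Col6a3 by 0.40 ± 0.075 (adjusted p = 0.00878). Col8a1 was higher, by 0.50 ± 0.085 (adjusted p = 0.00477). The Col6a3 call was lost without RKIP array 2 (adjusted p = 0.0621) and without GRK-Inh array 1 (0.0771), while a call for Col4a3 appeared without GRK-Inh array 2 (0.81, adjusted p = 0.0487). The other 23 genes were not called, with differences of -0.82 to 0.55 (adjusted p 0.0874 to 0.962), and the family's median was -0.025 beside 0.021 over all genes. For the 4 fibrillar genes that fell in both lines, the 95% intervals of the difference between the lines on the brightest probe set were -0.026 to 0.16 for Col1a2, -0.13 to 0.091 for Col3a1, -0.21 to 0.10 for Col5a2 and -0.23 to 0.26 for Col1a1. The further probe set of Col1a2 gave 0.10 to 0.40 (adjusted p = 0.0624 in the fit of all probe sets). The 3 fibrillar genes called in neither line had -0.074 to 0.35 for Col5a1, -0.68 to -0.042 for Col5a3 and 0.023 to 0.71 for Col27a1, and the differences of the latter pair were not called after adjustment (adjusted p = 0.162 and 0.185).

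Genes with several probe sets allowed the calls to be read a second time, on the same RNA. Of the 12 genes called in the RKIP-labelled hearts, 9 had a further tested probe set, and for 7 of them at least 1 was called in the same direction. In the GRK-Inh hearts this held for 7 of 11. The further probe sets gave larger falls for Col1a2 (-1.36 and -1.60), Col3a1 (-1.40 and -1.50) and Col5a2 (-1.09 and -1.22). Col1a1 had -0.98 and -0.63 on its second probe set, Col4a5 -0.52 and -0.60, and Col6a2 -0.73 and -0.69, each called in both lines. Col4a4 had -0.75 and -1.05 on its second probe set, called in both lines, and -0.29 and -0.26 on its dimmest tested one, called in neither. Smaller differences without a call came from the second probe sets of Col14a1 (-0.31 and -0.44) and Col4a1. The second probe set of Col4a3 gave -0.55 ± 0.18, adjusted p = 0.0947, and -0.46 ± 0.18, adjusted p = 0.137, so the Col4a3 call in the GRK-Inh hearts was not repeated on it. Between the lines it gave -0.093, beside 0.55 on the brighter one. Col8a1 had -0.23 and -0.46 on its second probe set, not called, and of the 3 genes that differed between the lines, neither of the 2 with a further probe set was called on it.

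**Figure D3:**
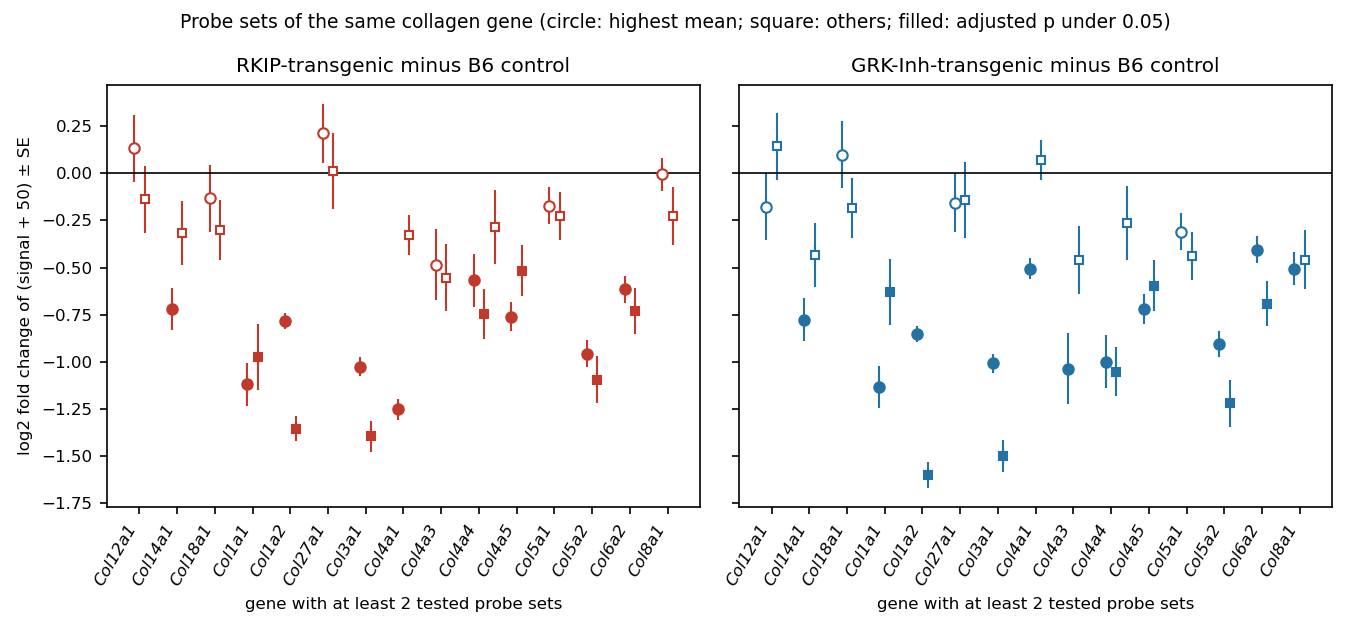
Log2 fold change of (signal + 50) with its standard error for each tested probe set of the collagen genes that have at least 2, RKIP-labelled minus B6 control on the left and GRK-Inh minus B6 control on the right. Circles are the brightest probe set of a gene, squares the others, and filled symbols have a limma adjusted p under 0.05; the 2 probe sets of Col4a1 lie apart in both panels.

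The 16 members below the filter included collagens of cartilage and of skin. They were 4 fibrillar genes and 12 of other types: Col6a4, Col6a5, Col9a2, Col9a3, Col10a1, Col13a1, Col17a1, Col19a1, Col22a1, Col23a1, Col25a1 and Col26a1. Their signals lay between 1.00 and 62.0 on single arrays, with no gene's mean above 43.9, near the median of all probe sets. Nothing can be read from them at this brightness.

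Genes that act on new collagen chains in the cell gave calls in both directions, and Serpinh1 was called in opposite directions in the lines. Of 17 tested genes for modification and folding, 1 rose, 4 fell and 12 were not called in the RKIP-labelled hearts. In the GRK-Inh hearts 3 rose, 1 fell and 13 were not called. For this and the following lists, the shares of all tested genes are the background. They were 5.32% higher and 5.51% lower in the RKIP-labelled hearts, and 5.86% higher and 7.27% lower in the GRK-Inh hearts. Serpinh1, the collagen chaperone HSP47, gave 4035 and 4317 on the control arrays, 2271 and 2286 on the RKIP-labelled arrays and 5018 and 5222 on the GRK-Inh arrays. It was lowest on the RKIP-labelled arrays and highest on the GRK-Inh arrays, with no overlap. Serpinh1 fell by 0.86 ± 0.051 in the former (adjusted p = 3.0e-06) and rose by 0.29 ± 0.051 in the latter (adjusted p = 0.00338), the rise being lost when the variance was modelled without a trend (adjusted p = 0.0769). P4ha1, a catalytic subunit of prolyl 4-hydroxylase, gave 344 and 361 on the control arrays, 325 and 284 on the RKIP-labelled arrays and 832.5 and 768 on the GRK-Inh arrays. It rose by 1.08 ± 0.10 in the GRK-Inh hearts (adjusted p = 5.2e-05) and was at -0.18 ± 0.10, adjusted p = 0.284 in the RKIP-labelled hearts. P4ha2, the second such subunit, rose by 0.70 ± 0.10 in the GRK-Inh hearts (adjusted p = 0.000795).

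The direct differences between the lines were -1.15 ± 0.051, adjusted p = 3.6e-07 for Serpinh1 and -1.26 ± 0.10, adjusted p = 2.5e-05 for P4ha1, RKIP-labelled minus GRK-Inh. Sec24d, a coat protein for export of procollagen from the endoplasmic reticulum, fell by 0.56 ± 0.073 in the RKIP-labelled hearts (adjusted p = 0.000816). In the GRK-Inh hearts, many collagen chains were lower while Serpinh1, P4ha1 and P4ha2 were higher, and in the RKIP-labelled hearts Serpinh1 was lower too. In the RKIP-labelled hearts the other lower members of the list were Plod1, a lysyl hydroxylase gene (-0.46), and Ppib, a prolyl isomerase gene (-0.35). Mia3, for an export factor of procollagen, was the 1 called higher there (0.22). The Plod1 call was lost in 4 of 15 alternative fits (described with the processing), and the Mia3 call in 11 of 15. In the other line Ppib was the 1 that fell (-0.25).

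**Figure D4:**
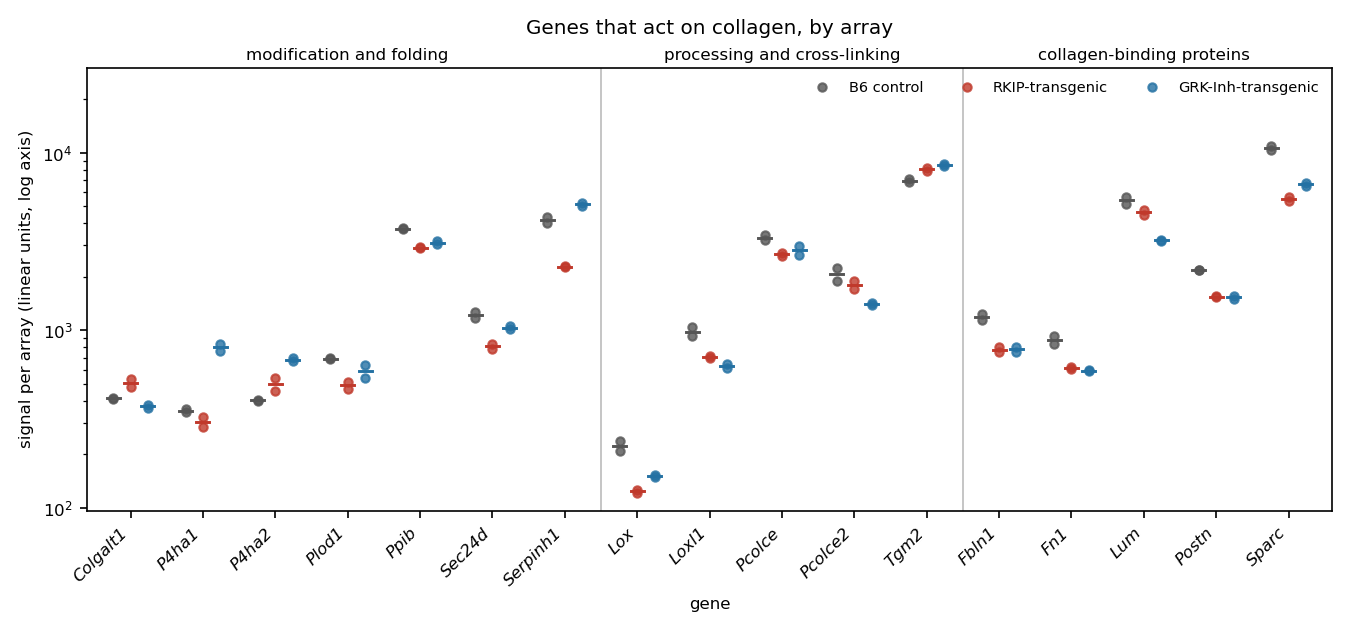
Signal on each array, on a log axis, for genes of collagen modification and folding, processing and cross-linking, and collagen-binding proteins that were called in at least 1 comparison, with a bar at the mean of each group of 2 arrays (grey, B6 control; red, RKIP-labelled; blue, GRK-Inh). Serpinh1 and P4ha1 have the GRK-Inh arrays above the others, while Sparc, Postn, Fn1 and Fbln1 have both lines below the controls.

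Of 8 tested genes for processing and cross-linking, 1 rose and 3 fell in each line. Loxl1, a lysyl oxidase that cross-links elastin and collagen, fell by 0.60 ± 0.082 in the GRK-Inh hearts (adjusted p = 0.000756) and by 0.45 ± 0.082 in the RKIP-labelled hearts (adjusted p = 0.00621), the latter call lost without control array 1 (adjusted p = 0.0629). Pcolce2, an enhancer of procollagen trimming, fell by 0.55 ± 0.081 in the GRK-Inh hearts (adjusted p = 0.00129). Lox gave 238 and 208.5 on the control arrays, 127 and 121 on the RKIP-labelled arrays and 149.8 and 152 on the GRK-Inh arrays. It fell by 0.65 ± 0.13 in the RKIP-labelled hearts (adjusted p = 0.0109), a call lost without RKIP array 2 (0.0541) or control array 1 (0.0856). Pcolce, a second such enhancer, was the remaining lower gene in each line (-0.31, adjusted p = 0.0902 without control array 2, and -0.24, adjusted p = 0.218 without GRK-Inh array 2). The 1 gene higher in each line was Tgm2, transglutaminase 2 (0.21 and 0.29). Its call in the RKIP-labelled hearts was lost without RKIP array 2 (adjusted p = 0.0648) or control array 2 (0.0622).

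Matrix proteins that bind collagen fell as well. Of 13 tested, 9 fell in the RKIP-labelled and 12 in the GRK-Inh hearts, with none higher and medians of -0.32 and -0.40. Sparc, which binds fibrillar and type IV collagen, gave 10878.5 and 10276 on the control arrays, 5595 and 5333 on the RKIP-labelled arrays and 6754 and 6474 on the GRK-Inh arrays. It fell by 0.95 ± 0.046 (adjusted p = 7.5e-07) and 0.67 ± 0.046 (adjusted p = 6.4e-06). Fn1, for fibronectin, fell by 0.49 ± 0.081 (adjusted p = 0.00337) and 0.54 ± 0.081 (adjusted p = 0.0015), and Fbln1, for fibulin 1, by 0.58 ± 0.078 (adjusted p = 0.000935) and 0.57 ± 0.078 (adjusted p = 0.000737). Lum, for the fibril-spacing proteoglycan lumican, gave 5124 and 5635 on the control arrays, 4465.5 and 4743 on the RKIP-labelled arrays and 3222 and 3187 on the GRK-Inh arrays, and fell by 0.74 ± 0.055 in the GRK-Inh hearts (adjusted p = 1.2e-05). There it was lower than in the RKIP-labelled hearts (difference 0.52 ± 0.055, adjusted p = 0.000249, RKIP-labelled minus GRK-Inh).

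Among 12 basement membrane partners of type IV collagen, 9 fell in the RKIP-labelled and 7 in the GRK-Inh hearts, with medians of -0.42 and -0.38. Sparc is in this list as well as in that of collagen-binding proteins, so the 2 counts are not separate. Nid1, for nidogen 1, which links the laminin and collagen networks, fell by 0.58 ± 0.061 (adjusted p = 0.00018) and 0.53 ± 0.061 (adjusted p = 0.000233). Pxdn, for peroxidasin, which forms the sulfilimine bonds of type IV collagen, fell by 0.76 ± 0.071 (adjusted p = 7.2e-05) and 0.73 ± 0.071 (adjusted p = 7.5e-05). Agrn, for agrin, fell by 0.76 ± 0.13 in the GRK-Inh hearts (adjusted p = 0.00294). Hspg2 fell by 0.59 ± 0.12 in the RKIP-labelled hearts (adjusted p = 0.0127), a call lost in 4 of 15 alternative fits.

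Of 10 tested genes of collagen breakdown, 1 rose and 1 fell in the RKIP-labelled hearts, and 1 rose and 3 fell in the GRK-Inh hearts. Timp4, a metalloproteinase inhibitor enriched in heart, gave 827 and 787 on the control arrays, 1187 and 1168 on the RKIP-labelled arrays and 2694 and 2685 on the GRK-Inh arrays. It rose by 0.52 ± 0.061 (adjusted p = 0.000388) and 1.68 ± 0.061 (adjusted p = 5.4e-08). Mmp2, a gelatinase made by fibroblasts, fell by 0.57 ± 0.073 (adjusted p = 0.000654) and 0.53 ± 0.073 (adjusted p = 0.000773). The cathepsin genes Ctsk (-0.80, adjusted p = 0.103 without control array 1) and Ctsl (-0.19, adjusted p = 0.113 without control array 1) were the remaining lower genes of the GRK-Inh hearts. None of 7 tested collagen receptor genes was called in any comparison by limma, and 1 or 0 per comparison had an unadjusted p under 0.05. The share of all genes at that unadjusted threshold is not given here. Itgb1, for the common integrin beta chain, was at -0.044 ± 0.10 and 0.00047 ± 0.10. Ddr1, for a collagen receptor kinase, was at -0.39 ± 0.12, adjusted p = 0.0636 in the RKIP-labelled hearts, where a call appeared without RKIP array 2 (adjusted p = 0.00179), and at -0.16 ± 0.12 in the GRK-Inh hearts.

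Some markers of fibroblasts, the main makers of fibrillar collagen, fell too. Of 14 fibroblast markers that are not collagens, 4 fell in the RKIP-labelled and 7 in the GRK-Inh hearts, none rose, and the medians were -0.25 and -0.23. The 4 were Fbln1, Dpt, Pdgfra (-0.38, adjusted p = 0.0869 without control array 2) and Lum (-0.22, adjusted p = 0.175 without control array 2), and in the GRK-Inh hearts Mfap4, a microfibril gene, fell furthest (-1.39). The summed signal of the 14 was 61267.5 to 61673 in the controls, 54126 to 56445 in the RKIP-labelled hearts and 51026 to 51114 in the GRK-Inh hearts. Of the 14, Dpt, Lum, Dcn and Fbln1 are also in the list of collagen-binding proteins and Ddr2 in that of receptors. Of 10 smooth muscle and pericyte markers, 6 and 5 fell, and the sum was 36699 to 37679.5 in the controls, 31879.8 to 31899 in the RKIP-labelled hearts and 31427 to 31671 in the GRK-Inh hearts. Acta2, for smooth muscle actin, fell by 0.50 ± 0.047 in the RKIP-labelled hearts and by 0.19 ± 0.047 in the GRK-Inh hearts (adjusted p = 0.023). Pdgfrb, a pericyte receptor gene, fell by 0.49 ± 0.05 in the GRK-Inh hearts. Of 12 endothelial markers, 2 fell in the RKIP-labelled hearts, Kdr (adjusted p = 0.199 without RKIP array 1) and Tek (adjusted p = 0.127 without control array 2). The GRK-Inh hearts had lower Tek (adjusted p = 0.145 without control array 2) and Emcn (adjusted p = 0.0524 without GRK-Inh array 2) and higher Flt1 (adjusted p = 0.271 without GRK-Inh array 1), and the endothelial sum was 10441 to 10709 in the controls, 9453 to 9586 in the RKIP-labelled hearts and 10252 to 10540.0 in the GRK-Inh hearts. Between the lines, 4 of the 12 endothelial markers were lower in the RKIP-labelled than in the GRK-Inh hearts and 0 higher, beside 4.35% lower of all tested genes. They were Cldn5 (-0.53), Kdr (-0.49), Pecam1 (-0.37) and Flt1 (-0.30), with calls lost in 1 to 7 of 15 alternative fits. The part of these cell populations in the collagen values was not tested.

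Of 10 heart muscle markers, Tnnc1 rose (0.13) and Actc1 fell (-0.12) in the RKIP-labelled hearts, and Atp2a2 fell (-0.11) in the GRK-Inh hearts. The Tnnc1 and Actc1 calls were each lost in 7 of 15 alternative fits, and the Atp2a2 call in 9 of 15. The sum of the 10 was 290414 to 298262 in the controls, 288502 to 293409 in the RKIP-labelled hearts and 282001 to 282158 in the GRK-Inh hearts. Of 9 macrophage markers, Csf1r fell in the RKIP-labelled hearts (-0.22, adjusted p = 0.105 without control array 2). Mrc1 (-0.49), Csf1r (-0.46) and Adgre1 (-0.29) fell in the GRK-Inh hearts. The Adgre1 call (adjusted p = 0.0498) was lost in 13 of 15 alternative fits. The summed signal of the 9 was 12637 to 13013 in the controls, 11975 to 12364.5 in the RKIP-labelled hearts and 10754 to 10785 in the GRK-Inh hearts. Of 9 cartilage, tendon and valve markers, Acan, Hapln1, Matn3, Scx and Tnmd were below the filter. Of the 4 tested, 1, Comp, was lower in each line (-0.39 and -0.41), calls that were lost without control array 2 (adjusted p = 0.0899 and 0.0615). Of 2 tested adipocyte markers, Adipoq fell in the RKIP-labelled hearts (-1.37 ± 0.18, adjusted p = 0.000943) and was at 0.16 in the GRK-Inh hearts.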

How the data were processed

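Total RNA of mouse hearts was labelled with biotin and hybridised to Affymetrix arrays, per the labels' protocols. The deposited table holds 1 intensity per probe set and array on a linear scale. The authors processed it with GCOS, per the submitters' processing notes, and from the values each array's trimmed mean (2% from each end) is 300.002. Array design, background step and detection calls are not given in the sources used here.

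Of 45101 probe sets, 64 are controls. GEO's platform annotation gave 1 symbol for 34945, several for 932 and none for 9160, and only the first were used, by the brightest probe set per gene. Values were taken as log2(signal + 50), with no further normalization. Genes at or above the median of the mean log2 value (6.65, a signal of 50.2) were tested with limma 3.58.1 in R 4.3.3 (lmFit on all 6 arrays, 3 residual degrees of freedom, eBayes with trend), with Benjamini-Hochberg adjustment over 11254 genes and a threshold of 0.05. The fit was also run on simulated data. Their spread was drawn to follow a smooth trend with the mean, so that run cannot judge the choice of a trend. The median standard error was 0.115, and 2 arrays per group limit the precision. Figures were drawn with matplotlib 3.10.9 in Python 3.11.15.

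Alternatives were another normalization, offset, filter, variance model, probe set choice or sample set, a replicate block, and each array left out. Collagen genes were named on every array where called in at least 1 comparison. Up to 4 called genes of largest change per other list were named, or up to 2 of highest signal where none was called, and the value in the other line may stand beside; other genes that make up a count of 5 or fewer were named after their values were seen. The members and lists were chosen with earlier results of these data known. Promoter windows and gene positions came from RefSeq tables of GRCm38.p6.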

Additional observations from a re-analysis of the deposited data

Results flagged for a closer look

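Col4a1, Col6a3 and Col8a1 differed between the lines by the direct test of that difference, RKIP-labelled minus GRK-Inh, with limma adjusted p under 0.05. Col4a1 differed by -0.75 ± 0.054 (adjusted p = 1.3e-05), with both RKIP-labelled arrays below both GRK-Inh arrays. Its second probe set gave -0.40 with an adjusted p of 0.0566, in the same direction. Col6a3 differed by -0.40 ± 0.075 (adjusted p = 0.00878). It has no further tested probe set. Col8a1 differed by 0.50 ± 0.085 (adjusted p = 0.00477), and its second probe set by 0.23, which was not called. Groups of 2 arrays are too small to single out an array that stands apart from its group.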

How the results depend on the processing

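The counts of collagen genes called lower than in the controls were 10 to 12 for the RKIP-labelled and 13 to 15 for the GRK-Inh hearts over all alternatives run, and the count called higher was 0 under each. Of 29 calls of single collagen genes, 24 were kept in every alternative in which the gene was tested. None of the 29 changed direction. Every alternative read the same brightest probe set of a gene, so further probe sets had no part in these counts. Those of Col4a1 in every comparison, and of Col4a3, Col8a1 and Col14a1 in the GRK-Inh hearts, were not called. In the GRK-Inh hearts that of Col4a1 was at 0.07. Among the 24, Col4a3 and Col4a4 in the GRK-Inh hearts were each tested in 14 of 15 alternatives. The 5 lost with a variance without trend were Col14a1 (adjusted p = 0.053) and Col4a4 (0.0873) in the RKIP-labelled hearts, Col6a2 in the GRK-Inh hearts (0.0525), and Col6a3 (0.0801) and Col8a1 (0.0529) between the lines. Col4a4 was also lost with no filter on dim genes (0.0772).

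Counts over all genes depended more on the settings. In the RKIP-labelled hearts 1219 genes were called, 297 with a variance without trend and 621 to 737 with 1 array left out. In the GRK-Inh hearts the counts were 1477, 731 and 896 to 921. Between the lines they were 993, 255 and 465 to 542, and 617 with no filter. There the collagen genes called higher numbered 0 and those called lower 1 without the trend, and 1 to 2 each with 1 array left out. The collagen median was -0.23 with an offset of 200, -0.16 with no filter, -0.79 with a filter at the 75th percentile and -0.58 to -0.32 with 1 array left out in the RKIP-labelled hearts. In the GRK-Inh hearts it was -0.19 with no filter and -0.72 with the higher filter; these settings test more or fewer dim genes. By class, no filter gave -0.32 and -0.30 for the fibrillar genes and -0.0057 for the other types in the RKIP-labelled hearts. The higher filter gave -0.62 and -0.52 for the other types and -0.89 for the basement membrane genes in the RKIP-labelled hearts, where an offset of 200 gave -0.33.

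Values that changed sign were not called. Col8a1 in the RKIP-labelled hearts was 0.0057 after quantile normalization and -0.10 to 0.090 with 1 array left out, positive without RKIP array 2. Between the lines, the median of all collagens was 0.015 with no filter and -0.056 to 0.028 with 1 array left out, that of the other types 0.16 and -0.074 to 0.067, and that of the fibrillar genes -0.026 with arrays shifted to one median. Col1a1 was -0.026 there too. With 1 array left out, differences between the lines ranged from -0.11 to 0.14 for Col1a1, -0.084 to 0.19 for Col14a1, -0.055 to 0.016 for Col3a1, -0.12 to 0.032 for Col4a5 and -0.074 to 0.023 for Col6a1, with -0.12 to 0.012 for Col5a2. Among uncalled genes in the RKIP-labelled hearts, ranges that crossed 0 in this way were -0.0070 to 0.27 for Col12a1, -0.40 to 0.13 for Col18a1, -0.92 to 0.017 for Col20a1, -0.28 to 0.0028 for Col4a6, -0.14 to 0.17 for Col7a1, -0.062 to 0.26 for Col8a2, -0.15 to 0.064 for Col9a1 and -0.21 to 0.13 for Itgb1. In the GRK-Inh hearts they were -0.17 to 0.37 for Col18a1, -0.10 to 0.84 for Col20a1, -0.33 to 0.016 for Col27a1, -0.14 to 0.21 for Col7a1, -0.21 to 0.11 for Col8a2, -0.16 to 0.48 for Adipoq and -0.17 to 0.17 for Itgb1, which was also -0.022 after quantile normalization and -0.00025 with an offset of 200. The cause was not tested.

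With the replicate number as a block, 12 and 14 collagen genes were lower against the controls, and 1150, 1434 and 905 genes were called in all. The numbers did not pair the samples, since deviations of same-numbered arrays from their group means correlated at 0.026, -0.030 and -0.035. Of 86 calls of partner and marker genes, 35 were kept in every alternative in which the gene was tested, again on the same probe set. In at least 1 alternative 51 were lost, 48 of them with a variance without trend.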

Other observations

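Several collagen genes are neighbours in the genome, and 7 neighbouring pairs were found among the 42 members in RefSeq's gene order of GRCm38.p6. In 4 of them both genes were tested and fell in the GRK-Inh hearts: Col3a1 and Col5a2 (-1.01 and -0.91), Col4a1 and Col4a2 (-0.51 and -0.73), Col4a3 and Col4a4 (-1.04 and -1.0), and Col6a1 and Col6a2 (-0.52 and -0.41). In the fifth tested pair, Col4a5 fell (-0.72) and Col4a6, near the filter, was at 0.32. In the RKIP-labelled hearts both genes fell in 3 of these 5 pairs, since Col4a3 (-0.48, adjusted p = 0.139) and Col4a6 (-0.14) were not called. The remaining pairs, Col9a1 with Col19a1 and Col6a4 with Col6a5, each held at least 1 gene too dim to be tested. Pairs of neighbours also belong to the same collagen type in most cases, so position and type cannot be told apart here. The pair counts reuse the calls on the brightest probe sets, and those of Col4a1 and Col4a3 were not repeated on a second one. A share over other pairs of genes is not given here.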
